A study of Mus musculus with 2 samples.

Results

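The collagen genes of mouse were followed across the cell types of the cortex at postnatal day 5, in 1 library from Katnal2 mutant animals (Mut) and 1 library from wild-type animals (WT). A gene was taken as a collagen gene when its symbol was Col, a number, the letter a and a number, which 44 of the 32285 genes in the table met. Of these, 39 had at least 30 unique molecular identifiers (UMIs, tags that count RNA molecules) over both libraries and are described here, and 31 of them had at least 200. The 5 left out were Col6a6 with 17 UMIs, Col17a1 with 16, Col6a5 and Col6a4 with 14 each and Col10a1 with 6, and the lowest of those kept were Col20a1 with 54 and Col24a1 with 63. Both groups are cortex with no treatment named beyond its dissection, digested with 0.25% trypsin for 30 min and 0.2% collagenase for 4 h, passed through a 70 µm strainer, sorted by flow cytometry and run on a 10x Genomics Chromium Controller. The sources used here do not name the changed part of Katnal2, the strain, the number and sex of the animals or the gate of the sort. Replicates, 3 per sample, are mentioned in the design text, yet within a library all barcodes end alike, so each genotype counts as 1 sample and no difference between Mut and WT has a replicate check.

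Collagens are built from chains wound around each other into a helix, and each chain has its own gene. Fibril-forming collagens (types I, II, III, V, XI, XXIV and XXVII) make the tensile fibres of connective tissue, fibril-associated collagens (types IX, XII, XIV, XVI, XIX, XX and XXII) sit on such fibres, and type IV makes the sheet of the basement membrane that surrounds blood vessels and lines the brain surface. In the brain, fibrous collagen is found mainly in the meninges and around larger vessels, and mutations of COL4A1 or COL4A2 in people cause disease of the small brain vessels.

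After filtering, 9286 Mut cells (median depth 7322 UMIs) and 10052 WT cells (median depth 6210.5 UMIs) remained, and 32 of their barcodes occurred in both. Cells were put into classes by how many of a class's marker genes had a UMI, and no collagen gene was among the markers. In cells with a UMI of Xist or of a Y-linked gene but not both, Mut had 4884 female and 2598 male cells and WT 3488 female and 3916 male cells, so each library pooled animals of both sexes in different proportions. Katnal2 itself was at 4.94 CPM (counts per mega-UMI, the UMIs of a gene scaled to the same total in each class) in Mut and 4.03 CPM in WT, and since the changed part of the gene is not named, this level does not check the labels. All intervals below are 95% intervals that cover counting error only, and "past 1.5 fold" is set on the ratio of Mut to WT after adding 5 CPM to each, over genes with at least 30 UMIs in the class.

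Of the 6 genes of type IV collagen, 3 pairs lie head to head, each pair reading away from a shared region. The annotated start of Col4a1, on the minus strand of chromosome 8, lies 21 bases inside the start of Col4a2 on the plus strand. Those of Col4a4 and Col4a3 on chromosome 1 lie 72 bases apart, and those of Col4a6 and Col4a5 on the X chromosome 1309 bases apart. These distances use the gene starts of GENCODE. The RefSeq starts that set the windows below are the same bases for Col4a1, Col4a4 and Col4a6, while that of Col4a5 lies further into the gene. The 4 windows below, RefSeq sequence of build GRCm38.p6 from 250 bases before to 50 bases after a gene's RefSeq start, are shown because the first pair was highest in the same class and the second was not. Each is read 5′ to 3′ on the strand of the named gene, and capitals mark CCAAT (or ATTGG on the other strand) and GGGCGG (or CCGCCC).
Col4a1, chr8:11312777-11313076, minus strand: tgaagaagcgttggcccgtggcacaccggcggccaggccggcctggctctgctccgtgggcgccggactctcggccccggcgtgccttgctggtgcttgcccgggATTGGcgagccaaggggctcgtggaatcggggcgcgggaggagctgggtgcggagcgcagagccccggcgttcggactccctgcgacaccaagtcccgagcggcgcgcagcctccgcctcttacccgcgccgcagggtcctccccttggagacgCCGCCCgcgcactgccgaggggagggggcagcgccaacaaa
Col4a4, chr1:82586800-82587099, minus strand: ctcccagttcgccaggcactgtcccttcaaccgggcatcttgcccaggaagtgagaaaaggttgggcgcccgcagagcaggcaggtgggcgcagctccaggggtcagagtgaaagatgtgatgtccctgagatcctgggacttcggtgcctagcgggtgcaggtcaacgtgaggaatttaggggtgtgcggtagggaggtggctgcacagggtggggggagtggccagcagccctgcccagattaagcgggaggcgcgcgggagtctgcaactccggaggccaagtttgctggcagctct
Col4a5, chrX:141475169-141475468, plus strand: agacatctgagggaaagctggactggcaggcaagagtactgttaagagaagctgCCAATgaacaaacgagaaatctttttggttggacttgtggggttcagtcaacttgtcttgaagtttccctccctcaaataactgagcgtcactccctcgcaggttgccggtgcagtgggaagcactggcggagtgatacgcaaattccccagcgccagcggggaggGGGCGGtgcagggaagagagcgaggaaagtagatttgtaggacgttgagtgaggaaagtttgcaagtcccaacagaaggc
Col4a6, chrX:141474027-141474326, minus strand: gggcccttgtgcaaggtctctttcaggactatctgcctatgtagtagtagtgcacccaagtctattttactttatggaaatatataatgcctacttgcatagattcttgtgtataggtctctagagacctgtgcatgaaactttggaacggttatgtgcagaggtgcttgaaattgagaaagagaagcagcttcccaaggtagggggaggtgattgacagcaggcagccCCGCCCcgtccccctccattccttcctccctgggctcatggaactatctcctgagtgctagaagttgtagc
The Col4a1 window also holds the start of Col4a2, at its position 272, and the Col4a4 window that of Col4a3, at its position 179. The Col4a1 window was 74% G or C, the Col4a4 window 63.3%, the Col4a5 window 52.7% and the Col4a6 window 48.3%, against a median of 52.7% over 32851 windows of the same length. CCAAT in either direction is in 37.4% of those windows and GGGCGG in 35.7%. The Col4a1 and Col4a5 windows hold 1 match of each, the Col4a6 window holds GGGCGG only, and the Col4a4 window holds neither, which says only that these letters are not in these bases.

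The share of RNA that was collagen was highest in the fibroblast-like and mural-like cells, both small populations. Collagens made up 1.21% of all UMIs in Mut fibroblast-like cells and 1.40% in WT ones, 0.669% in Mut mural-like cells (pericytes and smooth muscle of vessels) and 0.598% in WT ones, and 0.211% in Mut endothelial-like cells and 0.197% in WT ones. In astroglia-like cells, the largest class with 4337 Mut and 4484 WT cells, the share was 0.0293% and 0.0260%, and in border-associated macrophage-like cells 0.00168% and 0.000682%. By their number, astroglia-like cells still held more of all collagen UMIs than any other class, with 22.3% in Mut and 24.8% in WT. Fibroblast-like cells held 21.5% and 12.9%, mural-like cells 15.1% and 17.03% and endothelial-like cells 13.9% and 12.2%. A fibroblast-like cell had UMIs of 16 collagen genes in the median in Mut and 17 in WT, a mural-like cell 5 in both libraries, an endothelial-like cell 3 and an astroglia-like or oligodendrocyte precursor-like cell 2.

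Over the 11 classes with at least 30 cells in both libraries, 25 of the 39 collagens had their highest mean level in fibroblast-like cells, 6 in mural-like cells, 3 in oligodendrocyte-like cells, 2 each in astroglia-like and oligodendrocyte precursor-like cells and 1 in endothelial-like cells. The class with the highest level was the same in both libraries for 31 of the 39. The fibroblast-like class rests on 115 Mut and 43 WT cells, and each of its 10 markers was higher there than in the other classes. The gap was wide for Dcn, at 3118 CPM in Mut and 3679 CPM in WT against 0.755 and 0.231 CPM elsewhere, and narrow for Fbln1, at 196 and 73.1 CPM against 32.7 and 30.9 CPM.

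**Figure D1:**
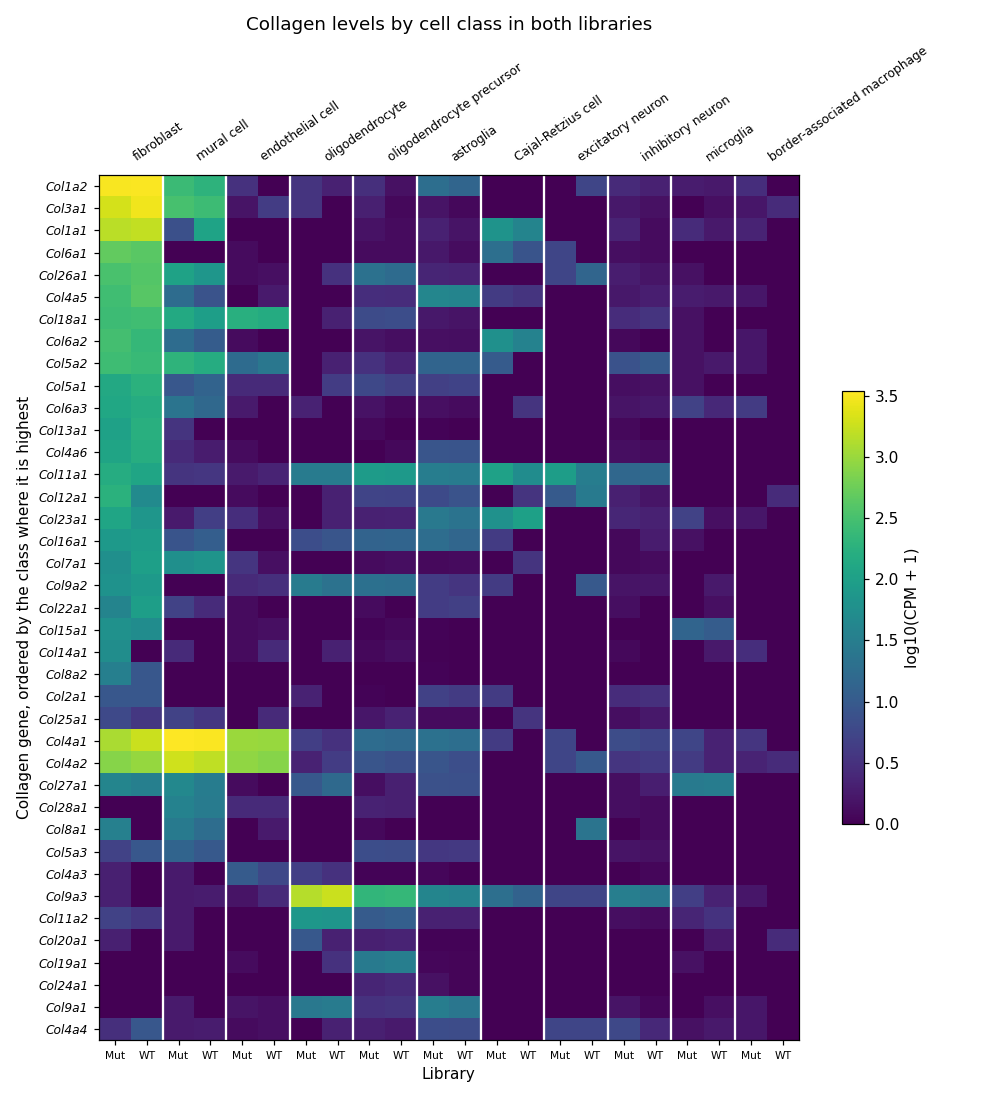
Level of each of the 39 collagen genes (rows) in 11 cell classes, with the Mut library left of the WT library in each class, as log10(CPM + 1). Most rows are brightest in fibroblast-like cells, while Col4a1 and Col4a2 are brightest in mural-like cells, Col9a3 in oligodendrocyte-like cells and Col19a1 in oligodendrocyte precursor-like cells.

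Fibril-forming collagens supplied 60.7% of the collagen UMIs of Mut fibroblast-like cells and 60.5% of those of WT ones. The chains of type I collagen, the main fibre of connective tissue, were at 1477 CPM in Mut and 1617 CPM in WT for Col1a1 and at 3231 and 3346 CPM for Col1a2. Col3a1, the only chain of type III collagen, was at 2014 CPM in Mut and 2918 CPM in WT. The interval of the ratio of Mut to WT held 1 for Col1a1 (0.83 to 1.01) and Col1a2 (0.904 to 1.03). Col3a1 was lower in Mut (0.69, 0.64 to 0.744) without passing 1.5 fold. These ratios cover all fibroblast-like cells, some of them in a cluster found in Mut alone. Without that cluster the interval of Col1a1 left out 1, as given below.

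Of type V collagen, which sets the diameter of type I fibres, 2 chains were also highest in these cells, with Col5a1 at 136 CPM in Mut and 179 CPM in WT and Col5a2 at 277 and 244 CPM. The chains of type VI, a beaded filament that links fibres to cells, were at 481 and 425 CPM for Col6a1, at 305 and 228 CPM for Col6a2 and at 126 and 154 CPM for Col6a3. Col11a1, a chain of the minor fibril collagen XI, had 154 CPM in Mut and 119 CPM in WT. None of these 6 passed 1.5 fold in fibroblast-like cells.

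Further collagens highest in fibroblast-like cells were Col18a1, whose C-terminal fragment is endostatin (268 CPM in Mut, 284 CPM in WT), Col26a1 (334 and 393 CPM), the fibril-associated Col16a1 (80.1 and 89.4 CPM) and Col9a2 (62.9 and 81.3 CPM), and the cartilage collagen Col2a1 (8.12 and 8.13 CPM, from 8 and 3 UMIs). Col2a1 had 82.4% of its UMIs in astroglia-like cells, where it was at 3.77 CPM in Mut and 3.17 CPM in WT. Both X-linked chains of type IV were also highest in fibroblast-like cells, Col4a5 at 285 CPM in Mut and 414 CPM in WT and Col4a6 at 117 and 157 CPM.

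Between the libraries, 27 collagens could be compared in fibroblast-like cells. Of these 5 were higher in Mut past 1.5 fold, where 12.5% of all genes tested were, and 3 were lower, where 5.99% were. The median log2 ratio of the 27 was -0.13, against 0.03 over all genes tested. Higher in Mut were Col12a1 and Col14a1, which bind the surface of fibrils, Col8a1 and Col8a2, the chains of a short network collagen, and the transmembrane collagen Col23a1. Lower in Mut were the fibril-associated Col22a1, the transmembrane Col13a1 and Col7a1, the collagen of anchoring fibrils in skin.

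Col12a1 had 176 UMIs in Mut and 18 in WT (179 and 48.8 CPM), 3.66 times as much in Mut (2.25 to 6.32). Col14a1 had 52 UMIs in Mut and 0 in WT, and Col8a1 had 33 and 0. Set against 3 counts, the limit that a count of 0 in the WT library allows, these are 6.49 fold and 4.12 fold higher in Mut. The intervals of their ratios, which also cover the counting error of the Mut UMIs, start at 5.09 for Col14a1 and 3.17 for Col8a1. Of the 5 genes higher in Mut, all but Col23a1 came mostly from a small group of Mut cells.

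Clustering without collagens split the fibroblast-like cells into a cluster led by Slc6a13, Ptgds and Dcn, with 92 Mut and 43 WT cells, and a cluster led by Mgp, Ccn3 and Ecrg4, with 23 Mut and 0 WT cells. The Mgp-led cells had 9 of the 10 fibroblast markers, Slc6a13 being at 0, and held 10 female and 6 male cells. Within Mut, Col12a1 was at 541 CPM in the Mgp-led cluster and 50.8 CPM in the Slc6a13-led one, Col14a1 at 195 and 2.74 CPM, Col8a1 at 125 and 1.37 CPM and Col8a2 at 97.4 and 9.60 CPM. The ratio of the Mgp-led to the Slc6a13-led cells was 10.7 (7.38 to 15.8) for Col12a1 and 10.1 (4.26 to 27.8) for Col8a2, and the other two rest on 2 and 1 UMIs in the Slc6a13-led cells, with intervals of 18.6 to 602 for Col14a1 and from 15.2 upward for Col8a1.

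Basement membrane and related collagens ran the other way between these clusters. Col4a1 was at 199 CPM in the Mgp-led Mut cells and 1575 CPM in the Slc6a13-led ones, and Col18a1 at 15.6 and 357 CPM. Col4a5 had 3 UMIs in the Mgp-led cells against 278 in the others. Col4a6, Col13a1, Col15a1, Col7a1 and Col22a1 had 0 UMIs in the Mgp-led cells, which allows up to 11.7 CPM each, and between 38 and 115 UMIs in the Slc6a13-led ones. Type I collagen differed less, with Col1a1 at 1714 and 1394 CPM and Col1a2 at 2761 and 3397 CPM. This split was set by other genes of the same cells, so it is a description and not a test.

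**Figure D2:**
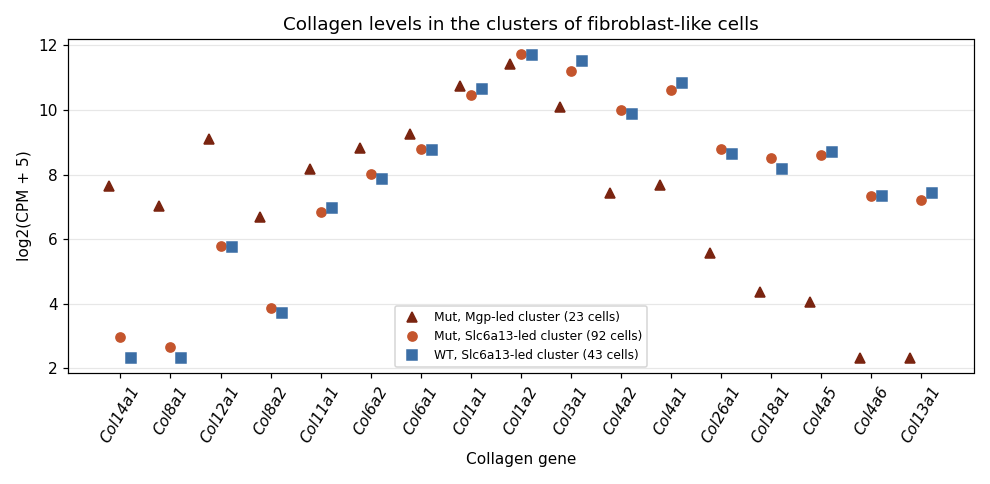
Level of 17 collagens, as log2(CPM + 5), in Mgp-led Mut cells (triangles, 23 cells), Slc6a13-led Mut cells (circles, 92 cells) and Slc6a13-led WT cells (squares, 43 cells). Among these 17 genes circles and squares lie furthest apart for Col14a1 (log2 ratio 0.63, from 2 and 0 UMIs). Triangles are above both for Col14a1, Col8a1, Col12a1 and Col8a2. They are below both for the type IV chains, Col26a1, Col18a1 and Col13a1. Col15a1, Col27a1, Col23a1 and Col22a1, which passed 1.5 fold between Mut and WT in Slc6a13-led cells, are not shown.

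With the Mgp-led cells left out, an alternative chosen after the data were seen, Col12a1 was at 50.8 CPM in Mut and 48.8 CPM in WT, Col8a2 at 9.60 and 8.13 CPM, Col14a1 had 2 and 0 UMIs and Col8a1 1 and 0. Col12a1 did not then pass 1.5 fold, and neither did Col13a1 at 144 and 168 CPM nor Col7a1 at 76.8 and 97.5 CPM. Col8a2, Col14a1 and Col8a1 then had fewer UMIs than the minimum for a comparison, so whether they passed could not be judged. Past 1.5 fold were 3 of 24 collagens higher in Mut, where 10.3% of all genes tested were, and 1 lower, where 5.01% were. The intervals of 2 of these 4 left out a ratio of 1, those of Col23a1 at 114 CPM in Mut and 70.4 CPM in WT, and of Col22a1 at 52.1 and 94.8 CPM. Below 1.5 fold, 1 was also left out for Col1a1 (0.862, 0.778 to 0.955), Col3a1 (0.802, 0.743 to 0.866) and Col4a1 (0.868, 0.788 to 0.956). For Col1a2 it was held (1.02, 0.948 to 1.09).

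The WT barcodes removed as likely doublets held some of the same RNA. Among 15 Mut and 10 WT fibroblast-like barcodes removed as doublets, Col14a1 had 14 and 7 UMIs and Col8a1 4 and 16, the 16 WT UMIs coming from 1 barcode. With those barcodes kept, Col14a1 was at 57.8 CPM in Mut and 14.4 CPM in WT and Col8a1 at 32.4 and 32.9 CPM, so that Col8a1 was no longer higher in Mut. Col12a1 was then at 165 and 73.99 CPM, a ratio of 2.23 in place of 3.66. Col13a1 at 107.7 and 139.8 CPM and Col7a1 at 57.8 and 84.3 CPM no longer passed 1.5 fold, and neither did Col13a1 when cells under 2000 UMIs were left out (log2 ratio -0.29). The libraries also differed in how many fibroblast-like cells they held and in their sex, with 56 female and 39 male cells in Mut and 32 and 8 in WT. The part of sex and of dissection in these differences was not tested.

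Mural-like cells carried type III and type I RNA at lower levels than fibroblast-like cells, and the libraries differed most in Col1a1. It had 8 UMIs in 271 Mut cells and 126 UMIs in 249 WT cells (6.41 and 111 CPM), which is 0.0579 times the WT level (0.0245 to 0.118). Its partner chain Col1a2 was at 261 CPM in Mut and 191 CPM in WT, and Col3a1 at 317 and 269 CPM. Col1a1 was thus lower in Mut while both others were somewhat higher, and its share of the UMIs of Col1a1 and Col1a2 together was 2.40% in Mut (1.04% to 4.66%) and 36.7% in WT (31.6% to 42.1%). In fibroblast-like cells the same share was 31.4% in Mut and 32.6% in WT.

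The WT signal was spread over cells: 56 of 249 WT mural-like cells (22.5%, interval 17.5% to 28.2%) had a Col1a1 UMI, with at most 8 in a cell, against 8 of 271 Mut cells (2.95%, interval 1.28% to 5.73%) with 1 each. Endothelial-like cells had a Col1a1 UMI in 0 of 295 Mut and 0 of 203 WT cells, which allows up to 1.02% and 1.48%, at a median depth of 9236 and 8107 UMIs against 4296 and 4225 in mural-like cells. RNA free in the suspension held 21.7 CPM of Col1a1 in Mut and 13.9 CPM in WT. The WT level in mural-like cells was therefore above that of free RNA and the Mut level below it.

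Sex of the cells moved with this result. Among female mural-like cells, 3 of 121 in Mut and 5 of 95 in WT had a Col1a1 UMI (2.48% and 5.26%, with overlapping intervals). Among male cells these were 3 of 51 in Mut and 23 of 59 in WT (5.88% and 39.0%, with intervals that do not overlap), and among cells of unset sex 2 of 99 and 28 of 95. Col1a2 had no such pattern, at 208 CPM in WT female cells and 182 CPM in WT male cells. Since animals of a library cannot be told apart by their barcodes, a difference between sexes and a difference between single animals cannot be told apart either.

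**Figure D3:**
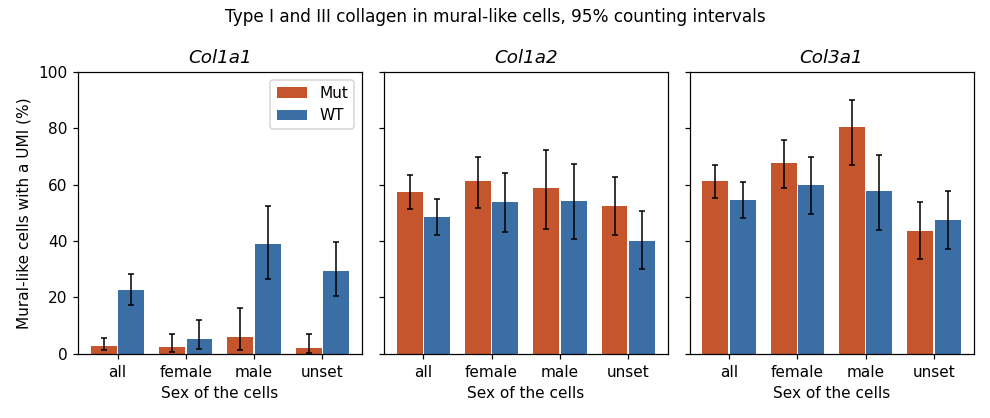
Percentage of mural-like cells with at least 1 UMI of Col1a1, Col1a2 or Col3a1, for all cells and by the sex of the cells, with Mut left of WT and 95% Clopper-Pearson intervals. Col1a1 stands out in WT male cells (39.0%) and WT cells of unset sex (29.5%), while for Col1a2 and Col3a1 the intervals of Mut and WT overlap in every group of cells shown.

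Markers of fibroblasts were low in the mural-like cells. Fibroblast markers with a UMI there numbered 6 of 10 in both libraries, with a summed level of 367 CPM in Mut and 293 CPM in WT, and Lum, Aldh1a2 and Crabp2 were at 0 in both. The 12 mural markers summed to 21246 CPM in Mut and 19620 CPM in WT. In the cells with pericyte markers alone, 216 in Mut and 185 in WT, Col1a1 was at 7.71 CPM in Mut and 129 CPM in WT, so the difference was also present there.

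Of 14 collagens compared in mural-like cells, Col1a1 was the only one lower in Mut past 1.5 fold, where 1.73% of all genes tested were, and Col26a1 the only one higher, where 4.42% were. Col26a1 was at 108 CPM in Mut and 70.3 CPM in WT, 1.54 times as much in Mut (1.16 to 2.06). The median log2 ratio of the 14 was 0.37, against 0.07 over all genes tested, and 12 of them were above 0.

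Mural-like cells had the highest level of Col4a1 and Col4a2, the chains of the common type IV network of vessels, while endothelial-like cells held the largest share of all Col4a2 UMIs (35.3%). Col4a1 was at 3455 CPM in Mut mural-like cells and 3276 CPM in WT ones, and Col4a2 at 1940 and 1593 CPM. In endothelial-like cells Col4a1 was at 1010 CPM in Mut and 986 CPM in WT, and Col4a2 at 894 and 789 CPM. Type IV chains made up 80.9% and 81.6% of the collagen UMIs of mural-like cells and 90.5% and 90.3% of those of endothelial-like cells. No collagen passed 1.5 fold in endothelial-like cells, among 5 compared, where 2.11% of all genes tested were higher in Mut and 0.748% lower.

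The balance of the pair differed between classes. Col4a1 supplied 64.0% of the UMIs of Col4a1 and Col4a2 in Mut mural-like cells (62.9% to 65.2%) and 67.3% in WT ones (66.0% to 68.5%). In endothelial-like cells it supplied 53.0% (51.9% to 54.2%) and 55.5% (54.1% to 57.0%), and in astroglia-like cells 72.9% (70.3% to 75.5%) and 74.6% (71.7% to 77.4%). The intervals of these 3 classes do not overlap within either library. The share in Mut was below that in WT in fibroblast-like cells too, at 60.5% and 65.9%, whereas in free RNA it was 59.6% and 59.2%. UMIs were not divided by transcript length, and exons of the genes overlap on opposite strands at their starts, so these shares are read only across classes and libraries.

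**Figure D4:**
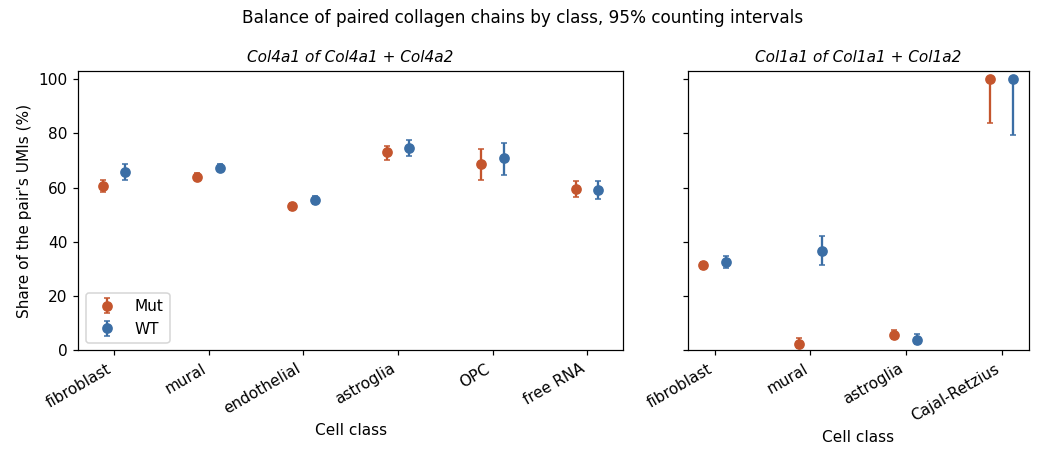
Share of a pair's UMIs that came from its first gene, in percent, for Col4a1 with Col4a2 (left) and Col1a1 with Col1a2 (right), by cell class, Mut left of WT, with 95% Clopper-Pearson intervals. Endothelial-like cells have the lowest Col4a1 share of the classes shown, and the Col1a1 share of mural-like cells is 2.40% in Mut and 36.7% in WT.

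The pair Col4a5 and Col4a6 was also found together, but in other cells. Besides fibroblast-like cells, Col4a5 was at 41.0 CPM in Mut astroglia-like cells and 38.4 CPM in WT ones, which held 81.3% of its UMIs, and Col4a6 at 7.57 and 7.25 CPM. Col4a5 supplied 84.4% of the pair in Mut and 84.1% in WT in astroglia-like cells, and 71.0% and 72.5% in fibroblast-like cells. Both were near 0 in endothelial-like cells, with 0 and 1 UMIs in Mut and 2 and 0 in WT.

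Col4a3 and Col4a4, whose chains join Col4a5 in the basement membrane of the kidney filter, had their highest mean levels in different classes. Col4a4 was at 5.88 CPM in Mut astroglia-like cells and 5.58 CPM in WT ones, from 248 and 213 UMIs, where Col4a3 had 6 and 1. In WT alone Col4a4 was highest in fibroblast-like cells, at 8.13 CPM from 3 UMIs, against 2.03 CPM from 2 UMIs in Mut. Its mean level was 5.73 CPM in astroglia-like and 5.08 CPM in fibroblast-like cells. In endothelial-like cells Col4a3 had 34 and 12 UMIs (9.35 and 4.87 CPM), and Col4a4 1 in each library. The starts of these genes lie within the window printed above for Col4a4. Col4a3 shares exon bases with the gene C430014B12Rik on the other strand, and the sources used here do not say whether counting used strand.

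Within the mural-like class, 18 Mut and 18 WT cells had smooth muscle markers. Col8a1 was at 26.5 CPM in Mut and 17.6 CPM in WT over all mural-like cells, highest in the mean of both libraries but in neither alone, since fibroblast-like cells had 33.5 CPM in Mut and 0 UMIs in WT and excitatory neuron-like cells 0 UMIs in Mut and 5 in WT. It was at 214 and 101 CPM in the smooth muscle cells and 10.6 and 8.16 CPM in the cells with pericyte markers, although cells that met more than 1 marker list held the largest share of its UMIs (36.7%). Col18a1 was at 370 and 192 CPM against 119 and 89.7 CPM. Col7a1 ran the other way, with 0 and 1 UMIs in smooth muscle cells and 61.7 and 72.2 CPM in pericyte cells. Over the whole class Col7a1 was at 56.9 CPM in Mut and 65.9 CPM in WT, close to its level in fibroblast-like cells of 56.8 and 97.5 CPM. Further collagens highest in mural-like cells were the fibril-forming Col5a3 (12.8 and 8.79 CPM) and Col28a1 (36.1 and 29.0 CPM), which had 57.8% of its UMIs there. The fibril-forming Col27a1 (43.3 and 29.9 CPM) was highest there in the mean and in Mut. In WT it was highest in fibroblast-like cells, where it was at 39.6 CPM in Mut and 32.5 CPM in WT.

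In the oligodendrocyte lineage, which makes myelin, collagen RNA was dominated by chains known from cartilage. Col9a3, a chain of type IX collagen, was at 1398 CPM in 79 Mut oligodendrocyte-like cells and 1806 CPM in 92 WT ones, and at 209 and 224 CPM in oligodendrocyte precursor-like cells. It had a UMI in 96.2% of Mut and 97.8% of WT oligodendrocyte-like cells. These cells also had UMIs of 7 precursor markers in the median in both libraries, and the oligodendrocyte markers Ermn and Mal were at 0 CPM there. The level of Col9a3 was higher in oligodendrocytes than in precursors in both libraries. Its partner chains Col9a1 (24.9 and 28.4 CPM) and Col9a2 (28.5 and 20.8 CPM) were far below it in oligodendrocytes. Col9a1 was also higher in oligodendrocytes than in precursors, where it was at 2.23 CPM in Mut and 2.40 CPM in WT. Col9a2 was at 18.99 and 17.7 CPM in precursors. Free RNA held 60.003 CPM of Col9a3 in Mut and 67.9 CPM in WT, above its level in astroglia-like cells of 39.4 and 35.5 CPM.

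Col11a2, another chain of the minor fibril collagen XI, was also highest in oligodendrocyte-like cells, at 73.5 CPM in Mut and 68.8 CPM in WT, and lower in precursors at 9.31 and 10.7 CPM. Col11a1 was the reverse, at 28.5 and 28.4 CPM in oligodendrocytes and 85.2 and 79.7 CPM in precursors. Col19a1, a fibril-associated collagen, was nearly limited to precursors, which held 97.2% of its UMIs, at 27.8 CPM in Mut and 31.3 CPM in WT, with 0 and 2 UMIs in oligodendrocytes. Within precursors it varied with the cluster. It was at 37.995 CPM in Mut and 44.9 CPM in WT in the largest cluster (Trnp1, C1ql1). In a cluster led by cell division genes (Cenpa, Cdc20) it was at 14.8 and 21.1 CPM. In another with histone genes of dividing cells among its leading genes (Hist1h2ap, Hist1h1b) it was at 29.0 and 23.8 CPM, with intervals that overlap those of the Cenpa cluster. It had 0 UMIs in 208 Mut and 230 WT cells of a cluster led by Dll3 and Matn4. In that last cluster Col9a3 was still at 107 and 79.1 CPM and Col11a1 at 85.7 and 87.4 CPM.

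No collagen passed 1.5 fold between the libraries among 17 compared in precursors, where 0.093% of all genes tested were higher in Mut and 0.147% lower, or among 5 in oligodendrocytes, where 4.08% and 3.92% were. In oligodendrocytes Col9a3 was at 0.774 times the WT level (0.718 to 0.835), the only 1 of the 5 whose interval left out 1. Collagens as a whole made up 0.159% of the UMIs of Mut oligodendrocyte-like cells and 0.200% of those of WT ones. Among female cells alone the ratio of these shares was 0.63 and among male cells alone 0.94, and the part of the animals in this was not tested.

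Astroglia-like cells had low levels of many collagens. Col9a1, a chain of type IX collagen, had 91.7% of its UMIs there, at 30.5 CPM in Mut and 23.5 CPM in WT. The transmembrane Col23a1 was at 26.3 and 21.6 CPM, Col1a2 at 18.0005 and 13.4 CPM, Col4a1 at 20.1 and 18.015 CPM, Col12a1 at 5.19 and 7.02 CPM and Col22a1 at 3.32 and 3.67 CPM. In fibroblast-like cells Col23a1 reached 118 and 70.4 CPM, Col22a1 38.5 and 94.8 CPM and Col13a1 107 and 168 CPM. None of 25 collagens passed 1.5 fold between the libraries in astroglia-like cells, where 0.146% of all genes tested were higher in Mut and 0.132% lower. The median log2 ratio of the 25 was 0.08, against 0.03 over all genes tested, and 21 of them were above 0. Markers of other cell types were higher in Mut in these cells as well. The 10 fibroblast markers, all with a UMI, summed to 87.8 CPM in Mut and 69.5 CPM in WT, the 10 endothelial markers to 16.6 and 11.3 CPM and the 12 mural markers to 94.4 and 89.6 CPM. The collagen share of free RNA was 0.0588% in Mut and 0.0475% in WT. The part of these in the collagen levels was not tested.

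Type I RNA in astroglia-like cells came mostly from 1 chain. Col1a2 had 759 UMIs in Mut and 512 in WT, Col1a1 46 and 21, and Col3a1 22 and 8. Col1a2 was 97.2% of the UMIs of Col1a2 and Col3a1 together in Mut and 98.5% in WT, against 61.6% and 53.4% in fibroblast-like cells and 51.7% and 45.4% in free RNA. The level of Col1a2 in astroglia-like cells was higher in Mut with a ratio of 1.34 (1.20 to 1.505), and that in free RNA was also higher in Mut, at 39.6 CPM and 17.7 CPM in WT. The ratio of Col1a2 was recomputed with an estimate of free RNA subtracted, as 1 of the alternatives listed below. The part of free RNA in the astroglial level of Col1a2 itself was not tested.

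Clusters of astroglia-like cells differed in their collagens, and each cluster named here had the highest or lowest level in both libraries. The cluster led by Gfap and Serpinf1 had the highest Col9a1, at 107 CPM in Mut and 101 CPM in WT, and the highest Col23a1, at 95.2 and 81.5 CPM. A cluster led by Crym and Six3 had the lowest Col9a1, at 2.54 and 3.20 CPM, and the highest Col16a1, at 33.0 and 24.2 CPM. A cluster led by Ttr, Veph1 and Naaa had the highest Col4a5, at 78.5 and 71.3 CPM, Col1a2, at 37.5 and 27.8 CPM, and Col4a4, at 22.2 and 26.6 CPM. Ttr is also the main transcript of choroid plexus, and whether free RNA of that tissue helps to set this cluster was not tested.

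**Figure D5:**
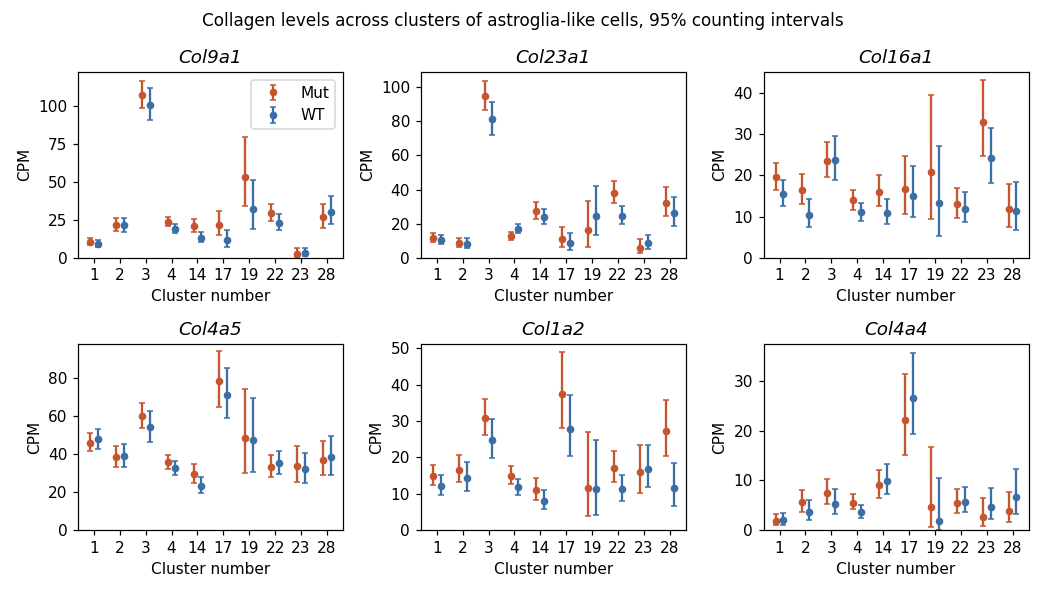
Level of 6 collagens in CPM across the 10 clusters of astroglia-like cells with at least 100 cells in each library, Mut left of WT, with exact Poisson 95% intervals. Cluster 3 (led by Gfap) peaks for Col9a1 and Col23a1, cluster 17 (led by Ttr) for Col4a5, Col1a2 and Col4a4, and cluster 23 (led by Crym) is lowest for Col9a1.

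Cajal-Retzius-like cells, early neurons of the cortical surface, had a pattern of their own in 39 Mut and 44 WT cells. Col1a1 had 21 UMIs in Mut and 16 in WT (64.5 and 38.9 CPM), while Col1a2 and Col3a1 had 0 in both libraries. Col6a2 was at 58.4 and 36.5 CPM with Col6a1 at 18.4 and 7.30 CPM, and Col23a1 at 61.4 and 102 CPM. Of the 10 fibroblast markers 3 in Mut and 2 in WT had a UMI, with Dcn, Lum and Ogn at 0 in both, and the list summed to 70.6 CPM in Mut and 34.1 CPM in WT. The cells were 20 female and 11 male in Mut and 7 female and 26 male in WT, and the part of both in the following was not tested. Of 4 collagens compared, 3 were higher in Mut past 1.5 fold and 1 lower, where 6.75% and 6.86% of all genes tested were. Only the interval of Col11a1 left out a ratio of 1, at 104 CPM in Mut and 51.1 CPM in WT (2.04, 1.15 to 3.70).

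Among immune cells, Col27a1 was at 27.8 CPM in Mut microglia-like cells and 29.2 CPM in WT ones, and the endostatin-family Col15a1 at 12.8 and 9.60 CPM. The 215 Mut and 87 WT border-associated macrophage-like cells held 27 and 4 collagen UMIs in all. None of 2 collagens compared in microglia-like cells passed 1.5 fold, where 3.13% of all genes tested were higher in Mut and 0.963% lower. No collagen had enough UMIs to be compared in the macrophages, where 7.79% and 2.86% of all genes tested were, or in excitatory neuron-like cells, where 13.7% and 12.3% were. In inhibitory neuron-like cells none of 6 collagens passed 1.5 fold, where 0.455% of all genes tested were higher in Mut and 0.294% lower. In 18 Mut and 14 WT ependymal-like cells, which line the ventricles, Col26a1 was at 110 and 53.3 CPM from 21 and 8 UMIs, Col12a1 at 73.0 and 53.3 CPM, Col4a1 at 136 and 113 CPM and Col1a2 at 57.4 and 40.0 CPM, with Col1a1 and Col3a1 at 0. The intervals of all these ependymal levels overlap between the libraries.

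Of the 8 collagens with fewer than 200 UMIs, Col14a1, Col15a1 and Col8a2 had the largest share of their UMIs in fibroblast-like cells, Col28a1 in mural-like cells, Col4a3 in endothelial-like cells, Col24a1 and Col20a1 in oligodendrocyte precursor-like cells and Col25a1 in astroglia-like cells, with shares between 24.2% and 58.2%. Col15a1 in fibroblast-like cells was at 60.9 CPM in Mut and 51.5 CPM in WT. Besides the genes named above, Col9a3, Col5a1, Col22a1 and Col15a1 share exon bases with a gene on the other strand and Col20a1 with a gene on its own strand, so that their counts may hold reads of those neighbours.

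The genes that process, cross-link, bind and degrade collagen were followed as 6 lists of 70 genes in all, each found in the table. Serpinh1, the collagen chaperone of the endoplasmic reticulum, was highest in fibroblast-like cells at 1120 CPM in Mut and 1092 CPM in WT, as was Pcolce, which helps to trim procollagen, at 425 and 398 CPM. Among collagen receptors, Itga1 was highest in mural-like cells at 1555 and 1547 CPM, Adgrg1 in astroglia-like cells at 246 and 252 CPM, Lair1 in microglia-like cells at 142 and 144 CPM and Ddr1 in inhibitory neuron-like cells at 59.3 and 49.4 CPM. The basement membrane partner Nid1 was highest in mural-like cells at 1003 and 885 CPM.

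In fibroblast-like cells, 1 of 15 tested hydroxylases and chaperones was higher in Mut past 1.5 fold (Plod3) and 1 lower (P4ha2), and of 8 genes of procollagen export and cross-linking 1 was higher (Bmp1) and 1 lower (Loxl2). Of 6 collagen receptors 2 were higher (Mrc2 and Itga11), of 11 basement membrane partners 1 was higher (Lamb2), and of 9 fibril partners 3 were higher (Tgfbi, Fn1 and Thbs2) and 2 lower (Fmod and Postn), while none of 3 proteases passed. In all 8 of 52 were higher and 4 lower, where 12.5% and 5.99% of all genes tested were. These values include the Mgp-led Mut cells. Over all classes, pairs of a listed gene and a class higher in Mut past 1.5 fold numbered 17, and 12 without these cells. Pairs lower in Mut numbered 7 with and without them. Which of the genes named here still passed without them is not reported here. With all fibroblast-like cells the difference was widest for Tgfbi, a matrix protein that binds collagen, with 74 UMIs in Mut and 1 in WT. In mural-like cells Mmp2 (40.1 and 22.8 CPM), Itga11 and Thbs2 were higher and 0 lower among 45 genes compared, where 4.42% and 1.73% of all genes tested were. None of the 53 compared in astroglia-like cells, the 40 in precursors and the 35 in endothelial-like cells passed 1.5 fold, where over all genes 0.146%, 0.093% and 2.11% were higher and 0.132%, 0.147% and 0.748% lower.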

How the data were processed

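The deposited files hold UMI counts per gene and barcode, with all barcodes kept, and the authors wrote them with Cell Ranger 4, per the file headers. Cell Ranger, STAR and build GRCm38 are named in the submitters' processing notes, and the sources used here do not state strand use, annotation release or sort gate. The counts were taken as deposited, from 97891513 UMIs in Mut and 93664707 in WT. The filter on barcodes asked for 1000 or more UMIs, 500 or more genes and no more than 20% of UMIs from mitochondrial genes, which 10102 barcodes in Mut and 11024 in WT met. Scrublet in scanpy 1.11.5 ranked doublets in each library, and the top 0.8% per 1000 barcodes were removed (816 and 972).

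A cell joined a class when at least 4 markers of its list had a UMI (5 for oligodendrocytes) and no other list reached more than 0.5 of that number, with a lead of 2 for related lists. This limit was not applied between oligodendrocytes and precursors. With 5 or more oligodendrocyte markers the precursor list was not counted, and with fewer the oligodendrocyte list was not counted. Other cells stayed unassigned or in more than 1 list. Clusters came from 2000 variable genes without collagens, 30 components, 15 neighbours and a Leiden resolution of 1. The members, the gene lists and the markers were chosen with earlier results of these data known, and the scoring rule was set after the marker counts, but not the collagens, had been seen. Genes with at least 200 UMIs are named with values in the class where they are highest, and the others by the class that holds most of their UMIs.

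Levels are counts summed per class and scaled to CPM by all UMIs of the class, with exact Poisson intervals. Shares have exact Clopper-Pearson intervals, and ratios of Mut to WT exact conditional binomial intervals (scipy 1.17.1). The ratio code was checked on simulated data. With 1 library a genotype no test was made. Free RNA was read from barcodes with 10 to 100 UMIs. Sex of a cell was set from Xist and the genes Ddx3y, Eif2s3y, Kdm5d and Uty. Alternatives were other filters on cells and genes, no doublet removal, a stricter marker rule, classes from clusters and female or male cells only. Further ones were another added value, scaling by the median ratio, free RNA subtracted and cells thinned to 2000 UMIs. Leaving out the Mgp-led Mut cells was added after the data were seen.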

Additional observations from a re-analysis of the deposited data

How the results depend on the processing

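Of 145 values recomputed for the comparisons, 109 stayed within their error or within 1.5 times the count, and of 398 values of single genes 374 did. Pairs of a collagen and a class higher in Mut past 1.5 fold numbered 9, but 3 with a gene minimum of 100 UMIs, 5 in female cells, 4 in male cells and 4 after thinning. Pairs lower in Mut numbered 5, but 2 with that minimum, 3 without doublet removal, 3 in male cells, 2 after thinning and 3 without the Mgp-led Mut cells. In male cells alone 0 collagens were highest in fibroblast-like cells, a class then under 30 cells in WT, and 16 in mural-like cells. Pathway pairs higher in Mut numbered 17, but 29 with a gene minimum of 10 UMIs, 4 with 100, 9 in male cells, 7 with 20 CPM added and 10 after thinning, and those lower 7, but 13, 4 and 4 with the minimum of 10, the minimum of 100 and 20 CPM added. The ratio of the collagen share of UMIs was 1.13 in astroglia-like cells, but 1.08 in female cells and 1.08 after thinning. In endothelial-like cells it was 1.07, but 1.13 without doublet removal, 1.13 in male cells, 1.0013 after thinning and, reversed, 0.982 with classes from clusters. In fibroblast-like cells it was 0.864, but 0.902 with a minimum of 2000 UMIs, 0.944 without doublet removal, 0.954 in male cells, 0.928 after thinning and 0.941 without the Mgp-led cells. In mural-like cells it was 1.12, but 1.08 in female cells, 1.25 in male cells and 1.18 after thinning. In precursors it was 0.994, but 0.923 in female cells, and in oligodendrocytes 0.796, but 0.629 in female and 0.941 in male cells. The log2 ratio of Col8a1 in fibroblast-like cells was 2.94, and -0.018 without doublet removal, where a removed WT barcode held its UMIs. For the other changes the cause was not tested. No paired analysis was possible because each genotype has 1 library. The 43 WT fibroblast-like cells limit what could be detected there.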
